A study of Mus musculus with 8 samples.

Results

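Chromatin genes whose mutations cause intellectual disability in people were followed in the hippocampal CA1 field of Brpf1 conditional knockout mice, Brpf1 being itself a gene of that kind. The set holds 33 genes, matched by symbol to a given list, of the 34094 genes in the deposited table, and each was found there once. The study compared 4 wild-type (WT) libraries with 4 libraries of a Brpf1 conditional knockout (cKO), all from C57BL/6 mice of 2 months. The labels describe the cKO mice as cko type (Brpf1 knockdown) and the series title speaks of hippocampus-specific loss. Neither the promoter that drove the deletion nor the cells it reached is given in the sources used here. A protocol names 3 pairs of mice although 4 libraries stand in each group, and libraries are not tied to single mice in the labels. P-values therefore measure the spread between libraries, which may be partly technical.

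These genes encode enzymes and scaffolds that set how tightly DNA is packed. Methyltransferases of the COMPASS family write methyl groups on lysine 4 of histone H3 (H3K4) at promoters and enhancers, demethylases of the KDM5 and KDM6 families erase methyl marks from H3K4 and from lysine 27 of the same histone, and the BAF and CHD complexes slide or evict nucleosomes with energy from ATP. Many of them are dosage sensitive, so that losing a single copy in people is enough to cause a developmental disorder, and in mature neurons they keep stable programs of gene expression in place. BRPF1 is a scaffold that holds histone acetyltransferases on chromatin.

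No member passed the test across all genes. Levels are in normalized reads, which are a gene's reads over the size factor of its library. The test was limma on log2(normalized reads + 1), with Benjamini-Hochberg adjustment over the 26135 genes with 1 or more normalized reads in 4 or more libraries. Among the 33 members, all of which were tested, 0 had an adjusted p under 0.05, and the smallest was 0.496. Over all genes tested 5 passed (0.0191%), and limma-voom on read counts recovered from the values called 0 members against 4 genes in all (0.0153%). The authors' deposited table gave 0 members an FDR under 0.05, where 224 of its 34094 genes had one (0.657%), and its lowest member FDR was 0.163, for Kdm6a. At an unadjusted p under 0.05, 2 members (6.06%) passed, Kdm6a and Kmt2d, both lower in cKO. That share lay below the 8.67% of all genes tested, of which 4.60% were lower and 4.07% higher in cKO. It also lay below the 11.7% of the 9200 genes whose mean level fell within the members' own range. A count of 2 among 33 members carries little reading against those shares. With limma-voom the number of members at an unadjusted p under 0.05 was likewise 2, against 2305 of all genes.

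The intervals around the members were about as narrow as those of other genes of like level. Log2 fold changes (cKO minus WT) ran from −0.33 to 0.23, with a median of 0.0053 over the 33 members against −0.018 over all genes tested and 0.035 over the 9200 genes of like level. Of the 33, 17 were positive and 16 negative, where 47.3% of all genes tested and 59.2% of the genes of like level were positive. In absolute size the median was 0.091 for members, 0.19 for all genes and 0.10 for genes of like level. For 30 of the 33 members the 95% interval of the difference lay within 1.5-fold in either direction, as it did for 88.7% of the genes of like level. For 16 of the 33 it lay within 1.25-fold, as it did for 45.3% of the genes of like level. The exceptions at 1.5-fold were Kmt2d, Arid1b and Tcf4. No member's interval reached 2-fold, the outermost bounds being −0.64 and 0.59. The standard errors of 0.072 to 0.19 therefore leave room for changes below those bounds, and a p above the threshold does not show that a gene stayed the same.

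**Figure D1:**
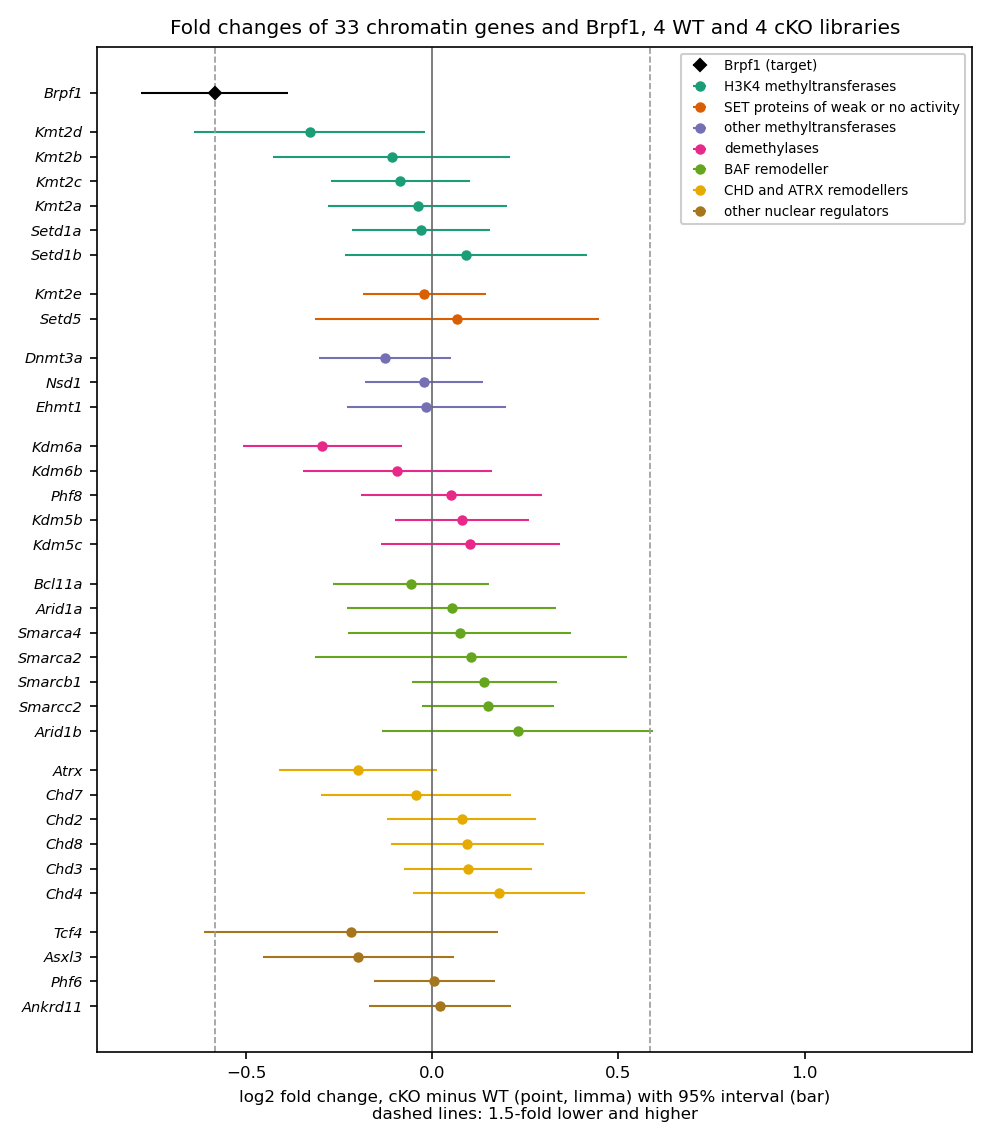
Log2 fold change of each member and of Brpf1, cKO minus WT, from limma on 4 WT and 4 cKO libraries (x axis), with the 95% interval as a bar, genes grouped by role and dashed lines at 1.5-fold. Brpf1 lies at −0.59, while the members lie between −0.33 and 0.23 and only the intervals of Kmt2d, Arid1b and Tcf4 cross a dashed line.

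Brpf1 was lower in cKO in bulk tissue, where its level does not give the loss in the cells that the deletion reached. It had 1358, 1451, 1473 and 1380 normalized reads in WT replicates 1 to 4 and 848, 1032, 897 and 1004 in cKO replicates 1 to 4, which left every cKO library below every WT library and the cKO mean at 66.8% of the WT mean. Reads on genes numbered 40330226 to 49897832 per library. The log2 fold change was −0.59 (SE 0.089, 95% interval −0.78 to −0.39), with a limma adjusted p of 0.132, so the targeted gene itself did not pass across all genes (the FDR in the authors' deposited table is 1.47e-07). CA1 was sampled by dissection. None of the 8 markers of CA1 pyramidal neurons was at 0 in all libraries, but the same held for the markers of every other cell type listed. The purity of the dissection cannot be read from that. Summed levels of the 8 CA1 markers were 18399 to 26728 normalized reads in WT and 18584 to 27346 in cKO. Of these, Mpped1 had 5550, 6981, 2438 and 1270 in WT replicates 1 to 4 and 6845, 6201, 1329 and 1717 in cKO replicates 1 to 4. It was thus higher in replicates 1 and 2 than in replicates 3 and 4 of both genotypes, and the cause was not tested. Fibcd1 did not overlap between groups, at 3865 to 5043 in WT and 5176 to 6350 in cKO (log2 fold change 0.34, SE 0.11, limma unadjusted p = 0.0108, adjusted p = 0.496). In bulk tissue, fewer cells of a type and less RNA per cell cannot be told apart.

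The members with the smallest p-values were Kdm6a, Kmt2d and Atrx, and all 3 were lower in cKO. Their promoters are shown because of that rank alone, since none of the 3 passed the test across all genes. CpG sites are marked in capitals, because a high density of them is a feature that most of the members' promoters share. Atrx is an exception, as given below. Each run is 300 bases from RefSeq (build GRCm38.p6), read 5′ to 3′ on the gene's own strand, from 250 bases before the annotated start to 50 after it.

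Kdm6a, chrX:18162325-18162624, + strand: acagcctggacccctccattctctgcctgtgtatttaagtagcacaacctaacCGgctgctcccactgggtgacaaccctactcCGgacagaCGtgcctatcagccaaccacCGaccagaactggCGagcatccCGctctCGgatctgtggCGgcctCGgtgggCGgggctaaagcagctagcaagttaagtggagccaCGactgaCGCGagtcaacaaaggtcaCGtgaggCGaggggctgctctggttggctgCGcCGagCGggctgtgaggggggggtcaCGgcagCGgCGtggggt

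Kmt2d, chr15:98871156-98871455, - strand: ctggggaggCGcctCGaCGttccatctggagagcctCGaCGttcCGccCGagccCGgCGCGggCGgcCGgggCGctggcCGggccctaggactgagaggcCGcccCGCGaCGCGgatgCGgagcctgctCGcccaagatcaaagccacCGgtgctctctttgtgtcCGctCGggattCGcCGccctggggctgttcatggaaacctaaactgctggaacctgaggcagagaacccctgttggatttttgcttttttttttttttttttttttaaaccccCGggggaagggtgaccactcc

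Atrx, chrX:105929323-105929622, - strand: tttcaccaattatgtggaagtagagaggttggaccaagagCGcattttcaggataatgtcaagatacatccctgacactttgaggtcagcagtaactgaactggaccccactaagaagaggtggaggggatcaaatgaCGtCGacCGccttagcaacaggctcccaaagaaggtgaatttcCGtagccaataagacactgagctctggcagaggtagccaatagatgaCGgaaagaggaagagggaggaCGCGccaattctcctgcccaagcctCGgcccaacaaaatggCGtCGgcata

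The Kdm6a window holds 21 CpG sites, the Kmt2d window 27 and the Atrx window 11. The dinucleotide CG, which reads the same on both strands, was counted in the first listed window of the 22 members that the RefSeq promoter table holds. A window counted as CpG rich when at least 50% of its bases were C or G and its CpG count was at least 0.6 of that given by its C and G content. By that measure 19 of the 22 (86.4%) were CpG rich, against 34.1% of all 27025 genes in the promoter table, 45.7% of its 17492 protein-coding genes and 75.5% of the 7100 genes of like level that it holds. Setd5, Atrx and Kdm5c were the 3 that were not, and Setd5 had 1 CpG in its window, while Kmt2c had 56. Unmethylated CpG-rich promoters are the sites to which KMT2A and KMT2B bind through their CXXC domains. Most of the contrast with the whole promoter table is thus also seen in other genes of like level, whose median window held 23 CpG sites against 27 in the members.

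Kdm6a (ENSMUSG00000037369) encodes an X-linked demethylase of H3K27 that is also a subunit of the KMT2C and KMT2D complexes, and its loss causes Kabuki syndrome. It had 2102, 1842, 2200 and 1996 normalized reads in WT replicates 1 to 4 and 1538, 1776, 1483 and 1850 in cKO replicates 1 to 4. In cKO, 3 of 4 libraries lay below the lowest WT library, while cKO replicate 4 lay just above WT replicate 2. The mean was 2035 ± 153 (SD, n = 4) in WT and 1662 ± 179 in cKO, or 81.7% of the WT level. The log2 fold change was −0.30 (SE 0.096, 95% interval −0.51 to −0.082), with a limma unadjusted p of 0.0113 and an adjusted p of 0.496. The unadjusted p stayed under 0.05 in each of 16 alternative analyses, while the adjusted p ranged from 0.333 to 0.777 over them.

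Kmt2d (ENSMUSG00000048154), the H3K4 methyltransferase of enhancers and the main Kabuki syndrome gene, had the most negative log2 fold change of the set. Its normalized reads were 4621, 5681, 6762 and 5207 in WT replicates 1 to 4 and 5074, 3656, 3931 and 5089 in cKO replicates 1 to 4. The groups overlapped, since cKO replicates 1 and 4 lay above WT replicate 1. The log2 fold change was −0.33 (SE 0.14, limma unadjusted p = 0.0397, adjusted p = 0.560). This value rested on single libraries more than that of Kdm6a: the unadjusted p was under 0.05 in 10 of the 16 alternatives and lay above it when WT replicate 2, 3 or 4 was left out, or replicate 2 or 3 of the cKO group.

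Atrx (ENSMUSG00000031229), an X-linked ATP-dependent remodeller that helps to deposit histone H3.3 in heterochromatin, had 15610, 13635, 12012 and 14222 normalized reads in WT replicates 1 to 4. In cKO replicates 1 to 4 it had 12476, 13124, 10468 and 12181. Only cKO replicate 3 lay below all WT libraries. The log2 fold change was −0.20 (SE 0.096, limma unadjusted p = 0.0630, adjusted p = 0.592). In 6 of the 16 alternatives the unadjusted p of Atrx was under 0.05.

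Of the 5 X-linked members, Kdm6a and Atrx had negative and Kdm5c, Phf8 and Phf6 positive log2 fold changes. Kdm6a and Kdm5c are genes that escape X inactivation, so the X and Y transcripts of the libraries bear on them. Xist, the RNA that coats the inactive X chromosome, was high in all 8 libraries, with 61454 to 71044 normalized reads in WT and 40726 to 55721 in cKO, which did not overlap (log2 fold change −0.44, SE 0.096, limma adjusted p = 0.330). Reads of Uty and Kdm5d, the Y-linked counterparts of Kdm6a and Kdm5c, numbered 11 in WT replicate 1, 3 in cKO replicate 2 and 0 in the other 6 libraries. Over 4 Y-linked genes WT replicate 1 held 61 reads and no other library more than 9. Without WT replicate 1 the unadjusted p of Kdm6a stayed under 0.05. A list of 7 nuclear long noncoding RNAs, including Malat1 and Neat1, also had negative values in all 7. Of these, 6 had an unadjusted p under 0.05, where 4.60% of all genes tested were lower in cKO at that threshold. The groups did not overlap for 2 of the 7, Kcnq1ot1 and Neat1 (for Neat1, log2 fold change −0.74, SE 0.10, limma adjusted p = 0.0714). The summed level of all 7 RNAs was 333789 to 394204 normalized reads in WT and 244487 to 376524 in cKO. The part of these shifts in the values of Kdm6a, Kmt2d and Atrx was not tested.

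**Figure D2:**
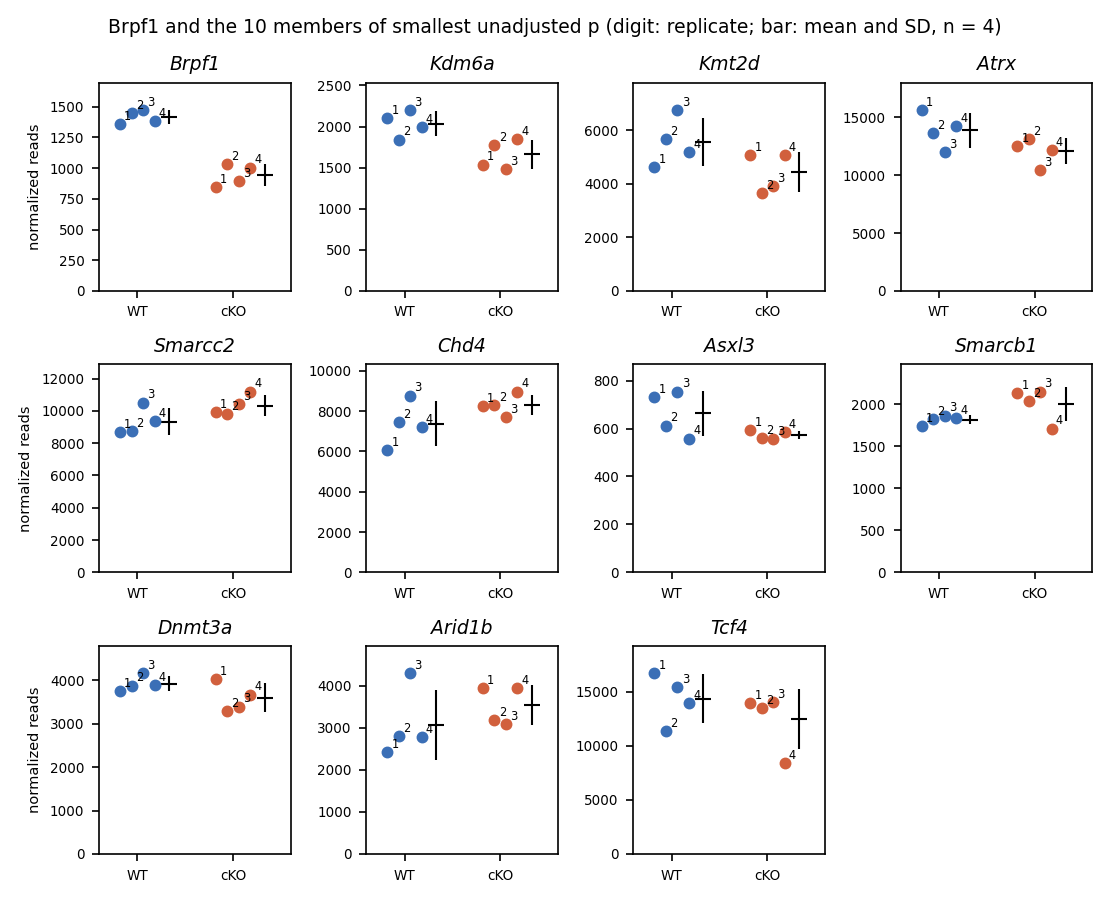
Normalized reads of Brpf1 and of the 10 members of smallest unadjusted p in each library (y axis from 0, digit = replicate number), with the mean and SD of 4 libraries as a bar. Brpf1 shows no overlap between WT and cKO, whereas each of the 10 members overlaps.

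Among the H3K4 methyltransferases 5 of 6 had negative values and 0 passed. Beside Kmt2d, its close relative Kmt2c had 4939 ± 264 normalized reads (SD, n = 4) in WT and 4664 ± 463 in cKO, a log2 fold change of −0.086 (SE 0.084). Kmt2a, which maintains Hox and neuronal genes and is the cause of Wiedemann-Steiner syndrome, had 8010.4 ± 802 and 7822 ± 1099. Kmt2b, a dystonia gene, had 2196 ± 212 and 2065 ± 472. Its cKO replicate 2 held 2734 reads, the highest of all 8 libraries, while its cKO replicate 3 held the lowest, 1644. Setd1a, a schizophrenia risk gene, had 2614 ± 189 and 2560.1 ± 181, and Setd1b had 1791 ± 330 and 1894 ± 264. The log2 fold changes of these last 4 genes were −0.040, −0.11, −0.030 and 0.091. The median of the 6 genes was −0.063, against −0.018 over all genes tested and 0.035 over genes of like level. Of the genes of like level 59.2% had positive values, and 6 genes carry little reading against that share.

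The SET-domain genes Kmt2e and Setd5 encode proteins for which methyltransferase activity is weak or disputed. Kmt2e was among the steadiest members, with 5372 ± 243 normalized reads (SD, n = 4) in WT and 5299 ± 387 in cKO. Setd5 was among the most variable, with 3644, 4006, 6282 and 4427 reads in WT replicates 1 to 4 and 5709, 4008, 5200 and 4087 in cKO replicates 1 to 4. The high libraries of Setd5 were thus WT replicate 3 and cKO replicates 1 and 3, in both groups. The log2 fold changes were −0.022 for Kmt2e and 0.065 for Setd5.

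The other methyltransferase genes had 3 negative values of 3, none past the test. Of the genes of like level 59.2% had positive values, and 3 genes carry no reading against that share. Dnmt3a writes DNA methylation, including the non-CpG methylation that mature neurons carry. It had 3749, 3881, 4169 and 3892 normalized reads in WT replicates 1 to 4 and 4032, 3297, 3398 and 3675 in cKO replicates 1 to 4. In cKO, 3 of 4 libraries lay below the WT range and replicate 1 within it, and the log2 fold change was −0.13 (SE 0.081, limma adjusted p = 0.662). Nsd1, the H3K36 methyltransferase of Sotos syndrome, had 7469 ± 547 (SD, n = 4) in WT and 7338 ± 293 in cKO. Its standard error, 0.072, was the smallest of the set. Ehmt1, the H3K9 methyltransferase of Kleefstra syndrome, had 1234 ± 70.6 and 1224 ± 138. The log2 fold changes of Nsd1 and Ehmt1 were −0.024 and −0.016.

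Demethylase genes other than Kdm6a differed by about 0.1 or less on the log2 scale. Kdm6b, the other H3K27 demethylase of the set, had 1771 ± 252 normalized reads (SD, n = 4) in WT and 1650.5 ± 144 in cKO, with a log2 fold change of −0.094. The H3K4 demethylase genes Kdm5b and Kdm5c had WT means of 2877 ± 163 and 2240 ± 258 (SD, n = 4) and cKO means of 3045 ± 248 and 2403 ± 270. Their log2 fold changes were 0.080 and 0.10. Phf8, which removes methyl groups from H3K9 and H4K20, had 1020 ± 100.1 and 1058 ± 124, a log2 fold change of 0.050. The 5 demethylase genes as a group had a median of 0.050, with 1 of 5, Kdm6a, at an unadjusted p under 0.05, where the share over all genes was 8.67% and over genes of like level 11.7%. A single gene of 5 carries no reading against those shares.

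Among the BAF genes 6 of 7 had positive values, though 0 had an unadjusted p under 0.05. The median log2 fold change of the 7 was 0.10, against 0.035 over genes of like level, of which 59.2% had positive values. A group of 7 genes carries little reading against that share. Smarcc2, a core scaffold subunit, had 8689, 8765, 10512 and 9365 normalized reads in WT replicates 1 to 4 and 9912, 9788, 10433 and 11190 in cKO replicates 1 to 4, so that WT replicate 3 overlapped the cKO libraries (log2 fold change 0.15, SE 0.080, limma adjusted p = 0.615). Smarcb1, another core subunit, had 1740, 1823, 1868 and 1838 in WT and 2133, 2040, 2152 and 1713 in cKO. In cKO, replicates 1 to 3 were above every WT library and replicate 4 was below them all (log2 fold change 0.14, SE 0.088, and 0.21 without that replicate). Arid1b, the most often mutated BAF gene in intellectual disability, had 2427, 2802, 4298 and 2771 in WT and 3947, 3179, 3093 and 3944 in cKO, where WT replicate 3 was the highest of the 8 libraries (log2 fold change 0.23, SE 0.16). The value for Arid1b was 0.40 without WT replicate 3 (limma adjusted p = 0.354) and 0.13 without WT replicate 1 (limma adjusted p = 0.899). The ATPase genes Smarca2 and Smarca4 had WT means of 7144 ± 1421 and 4494 ± 712 (SD, n = 4) and cKO means of 7718 ± 1819 and 4730 ± 743. Arid1a, the counterpart of Arid1b in the complex, had 4014 ± 649 and 4146 ± 544. The log2 fold changes of Smarca2, Smarca4 and Arid1a were 0.10, 0.073 and 0.051. Bcl11a, a zinc finger factor that joins BAF in neurons, was the 1 gene of the group with a negative value, at 3780.3 ± 409 and 3625 ± 305 (log2 fold change −0.059).

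Among the CHD remodellers, Chd4, the ATPase of the NuRD complex, had the largest value. It had 6089, 7465, 8773 and 7198 normalized reads in WT replicates 1 to 4 and 8241, 8293, 7720 and 8969 in cKO replicates 1 to 4, with WT replicate 3 inside the cKO range (log2 fold change 0.18, SE 0.10, limma adjusted p = 0.634). The value for Chd4 was 0.092 without WT replicate 1 and 0.27 without WT replicate 3. Chd3, another NuRD ATPase gene, had 37226 ± 3267 (SD, n = 4) in WT and 39708 ± 2193 in cKO, a log2 fold change of 0.096. Chd8, a leading autism gene, had 3449 ± 390 and 3668 ± 222, and Chd2, an epilepsy gene, had 2680 ± 285 and 2824 ± 190. Their log2 fold changes were 0.094 and 0.078. Chd7, the CHARGE syndrome gene, had 950.4 ± 88.2 and 925 ± 122, a log2 fold change of −0.043.

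Among the remaining regulators the values of Tcf4 and Asxl3 lay farthest from 0. Ankrd11, a chromatin cofactor that binds histone deacetylases and underlies KBG syndrome, had 9958 ± 1165 normalized reads (SD, n = 4) in WT and 10063 ± 500.3 in cKO, a log2 fold change of 0.021. Phf6, a nuclear plant-homeodomain protein gene, had 1911 ± 76.5 and 1919 ± 99.2, and its log2 fold change of 0.0053 was the median of the whole set. Tcf4, the basic helix-loop-helix factor of Pitt-Hopkins syndrome, had 16731, 11396, 15433 and 13921 in WT replicates 1 to 4 and 13970, 13525, 14070 and 8382 in cKO replicates 1 to 4. WT replicate 2 lay below cKO replicates 1 to 3, and cKO replicate 4 was the lowest of all 8 libraries. The negative value of −0.22 (SE 0.18) leaned on cKO replicate 4, without which it was −0.038, and was −0.14 without WT replicate 1. Asxl3, a partner of the BAP1 deubiquitinase, had 731, 613, 754 and 558 in WT and 594, 561, 557 and 584 in cKO, a log2 fold change of −0.20 (SE 0.12, limma adjusted p = 0.636). WT replicate 4 lay within the cKO range, and the other WT libraries lay above it. The spread of Asxl3 was wider among WT libraries than among cKO libraries (SD of log2 values 0.21 and 0.044).

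No member separated the groups fully: in 0 of 33 did all libraries of one group lie above all of the other. The groups were so separated in 4.92% of all genes tested and 6.71% of the genes of like level. A count of 0 among 33 members carries little reading against those shares. This count was not fixed, because Kdm6a separated the groups under total-read scaling and under quantile normalization, and leaving out single libraries gave 0 to 4 members. The 4 arose without WT replicate 3, namely Arid1b, Atrx, Chd4 and Smarcc2, where 11.0% of all genes did so with 7 libraries. Without that library 5 members (15.2%) had an unadjusted p under 0.05, against 10.6% of all genes. Shares of genes of like level were not computed without that library. With all 8 libraries 11.7% of the genes of like level had such a p, against 8.67% of all genes. Counts of 4 and 5 among 33 members therefore carry little reading.

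In some libraries of each genotype most members deviated the same way. In WT replicate 3, 30 of the 33 members (90.9%) lay above their own mean over the 8 libraries, against 54.4% of the genes of like level. The 3 that did not were Atrx, Phf6 and Smarcb1. In cKO replicates 1 and 4, 26 (78.8%) and 23 (69.7%) members lay above their mean, against 54.1% and 61.1% of genes of like level. In WT replicate 1 and in cKO replicates 2 and 3 the counts were 10 (30.3%), 10 (30.3%) and 12 (36.4%), against 45.8%, 49.9% and 58.4% of genes of like level. In WT replicates 2 and 4 the counts of 13 (39.4%) and 14 (42.4%) lay close to the shares of genes of like level, 41.8% and 42.8%. The median deviation was 0.17 in WT replicate 3 and −0.075 in WT replicate 1 on the log2 scale, where genes of like level had 0.015 and −0.021. WT replicate 3 held the highest value of 13 members and cKO replicate 4 that of 11, while WT replicate 1 held the lowest value of 12. High and low libraries thus occurred in each genotype.

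**Figure D3:**
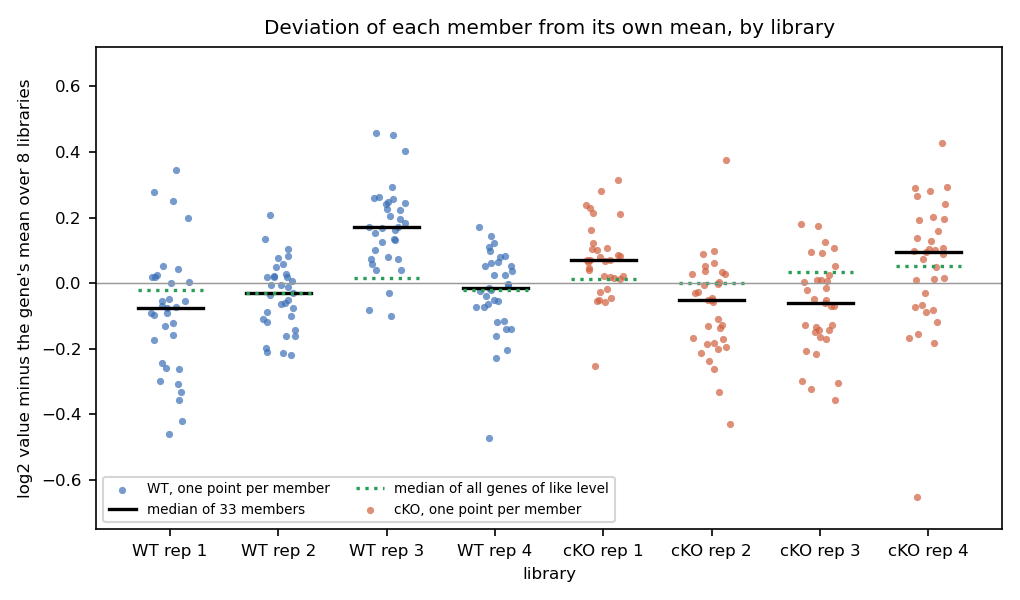
Log2 value of each of the 33 members minus its own mean over the 8 libraries (y axis) in each library (x axis), with the median of the members (solid line) and of the 9200 genes of like level (dotted line). The members' median is 0.17 in WT replicate 3 and 0.093 in cKO replicate 4 but −0.075 in WT replicate 1 and −0.060 in cKO replicate 3.

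Transcript length was set beside this pattern, because the members are long: the union of their annotated exons (GENCODE M21) had a median of 12600 bases, from 5552 for Smarcc2 to 27382 for Tcf4, against 5141 bases for the genes of like level, and 6.93% of those genes exceeded the members' median. Genes of like level with at least 8586 bases of exon number 1840, 22 of them members. In the libraries where the members were high, the median deviation of these 1840 long genes was 0.074 in WT replicate 3, 0.047 in cKO replicate 1 and 0.050 in cKO replicate 4. Genes of at most 2928 bases stood there at −0.068, −0.018 and 0.025. In cKO replicates 2 and 3, where the members were low, long genes stood at −0.072 and −0.034 and short genes at 0.059 and 0.075. WT replicate 1 differed: the members' median there was −0.075, but that of long genes was 0.00079 and that of short genes −0.014. Long genes thus moved with the members in some libraries and not in WT replicate 1. The part of transcript length in the members' deviations was not tested. Atrx, with 21757 bases of exon, had its lowest WT value in WT replicate 3.

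Per kilobase of exon, Chd3 was the most abundant member and Asxl3 the least. In WT, Chd3 had 4409 ± 387 normalized reads per kilobase (SD, n = 4), above 98.9% of the genes tested, followed by Smarcc2 with 1681 ± 152, Chd4 with 920.5 ± 138, Smarca4 with 694 ± 110 and Atrx with 637 ± 68.5. The last 2 of these did not differ beyond their spread. At the lower end stood Phf8 with 109 ± 10.7, Chd7 with 68.9 ± 6.40 and Asxl3 with 42.7 ± 6.05. In all, 32 of the 33 members lay above the median gene on this scale. Per kilobase, Kdm6a (243 ± 18.3), Kmt2c (243 ± 13.0), Arid1b (244 ± 66.1), Setd5 (250 ± 63.9) and Kdm6b (255 ± 36.3) could not be told apart. These lengths come from an annotation other than the authors', so the levels per kilobase are approximate.

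Ratios between related members do not depend on the scaling of a library, and 10 pairs of relatives among the members were compared. None of the 10 passed a test between genotypes (two-sided exact permutation test over the 8 libraries, where 0.0286 is the smallest p possible, and 0 of 10 passed after Benjamini-Hochberg adjustment over the pairs). At that smallest p a single pair could not pass after adjustment, however far its ratio moved. The adjusted count of 0 therefore carries little reading. Before adjustment the smallest exact permutation p was 0.0571. The largest difference was in Kmt2c over Kmt2d, whose log2 ratio was −0.16 ± 0.16 (SD, n = 4) in WT and 0.082 ± 0.12 in cKO (exact permutation p = 0.0857, adjusted 0.429). Kdm6a over Kdm6b was 0.21 ± 0.23 in WT and 0.0076 ± 0.075 in cKO (exact permutation p = 0.0571, adjusted 0.429), and WT replicate 1 alone stood at 0.55. Without that library the difference for Kdm6a over Kdm6b went from −0.20 to −0.088. Arid1a over Arid1b was 0.41 ± 0.17 and 0.23 ± 0.11 (exact permutation p = 0.171, adjusted 0.50). The other 7 pairs had differences between −0.14 and 0.070 with exact permutation p-values of 0.20 to 0.886.

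The balance of each pair per kilobase was uneven in most families. In WT, Chd3 exceeded Chd4 4.82-fold and Setd1a exceeded Setd1b 2.62-fold per kilobase, each in 8 of 8 libraries. Kmt2a was 2.10-fold above Kmt2b, and Kmt2e was 2.10-fold above Setd5. Smarca2 stood at 0.716 of Smarca4, Kdm5b at 0.554 of Kdm5c and Chd7 at 0.331 of Chd8, each lower in 8 of 8 libraries. Kmt2c stood at 0.879 of Kmt2d in WT and was the higher of the pair in 3 of 8 libraries. Kdm6a stood at 0.959 of Kdm6b in WT and was the higher in 1 of 8, WT replicate 1, and the log2 ratio per kilobase was −0.061 ± 0.23 (SD, n = 4) in WT and −0.26 in cKO.

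**Figure D4:**
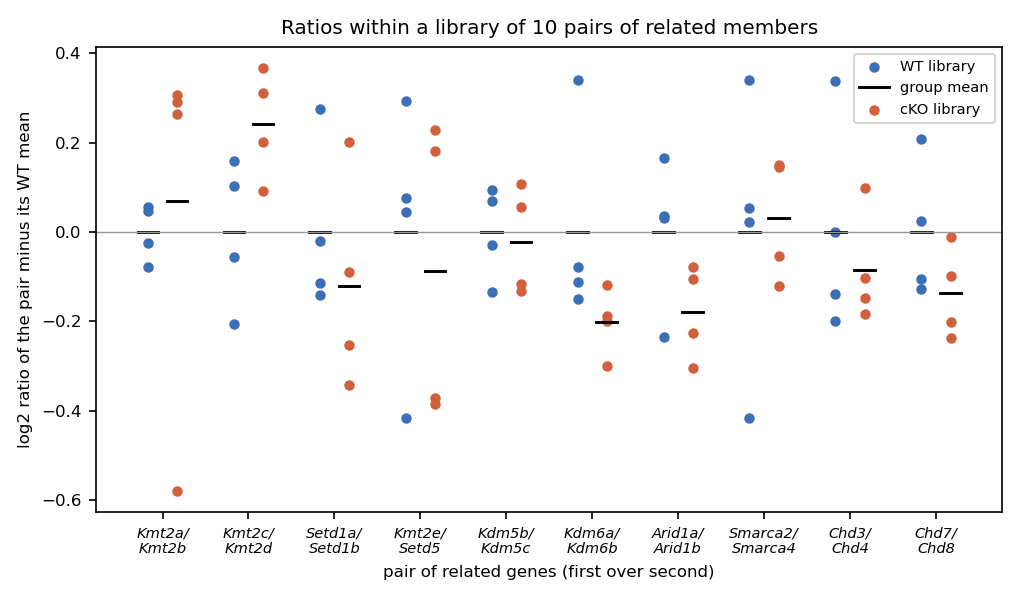
Log2 ratio of normalized reads within each library for 10 pairs of related members, minus the pair's WT mean (y axis), with WT and cKO libraries as points and group means as lines. All 10 pairs overlap between the groups, the widest gap of means being 0.24 for Kmt2c over Kmt2d.

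Other chromatin genes, listed as partners in the same complexes or as further intellectual disability genes, were read beside the members. Of 125 such genes 123 were tested and 0 passed limma over all genes. At an unadjusted p under 0.05 there were 7 (5.69%), and 4 (3.25%) did not overlap between groups. Both counts include Brpf1, the targeted gene itself, whose lower level comes from the design. With all 8 libraries both lay below the shares over all genes, 8.67% and 4.92%, against which counts this small carry little reading. COMPASS subunits had 0 of 13 at an unadjusted p under 0.05, with a median log2 fold change of 0.053. BAF partners had 2 of 23, Smarcd1 and Smarcd3, both with positive values, and a median of 0.076. The groups did not overlap for Smarcd3, a subunit of muscle and neuronal BAF, with 2283, 2338, 2295 and 2285 normalized reads in WT replicates 1 to 4 and 2587, 3170, 2675 and 2956 in cKO replicates 1 to 4 (log2 fold change 0.30, SE 0.080, limma adjusted p = 0.493). NuRD and ChAHP partners had 1 of 14, Rbbp7, a histone-binding subunit, with 4740.1 ± 279 (SD, n = 4) in WT and 5846 ± 349 in cKO (limma adjusted p = 0.419). Other methylation and demethylation genes had 1 with a positive value, Kdm1a, and 1 with a negative value, Tet1, of 21 tested. The PR-DUB, ATRX and ANKRD11 partners had 0 of 13. Among 39 further intellectual disability genes 2 had an unadjusted p under 0.05, Brpf1 and the cohesin gene Rad21 (5568 ± 162 in WT against 6223 ± 454 in cKO, limma adjusted p = 0.575). The partner count moved with single libraries, from 5 to 17, and the value was 17 without WT replicate 3, 13 without cKO replicate 1 and 17 without cKO replicate 2. The shares over all genes there were 10.6%, 11.3% and 10.3%. Thus the partner share lay above that of all genes without WT replicate 3 or cKO replicate 2, and below it without cKO replicate 1. No share over genes at the partners' own level was computed, so these contrasts carry little reading.

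Markers of other cell types differed between libraries, and their levels are given beside these values. All 8 choroid plexus markers had negative log2 fold changes, and they summed to 5210 to 164277 normalized reads in WT and 10513 to 47388 in cKO. The 8 oligodendrocyte markers were all negative too, with sums of 117511 to 172744 and 95976 to 149148. All 6 microglia markers were positive, with sums of 10755 to 11829 and 10662 to 14018, and interneuron markers had sums of 22882 to 30810 and 26969 to 33414. Sums for 6 dentate granule markers (18899 to 22060 and 17646 to 22263), 6 astrocyte markers (143145 to 198284 and 175131 to 190500) and 6 endothelial markers (6779 to 7859 and 6349 to 8117) overlapped as well. Of the 6 interneuron markers 5 were positive and 1 negative. Only Sst among them did not overlap between groups (5277 ± 246 in WT, 6380 ± 514 in cKO, SD, n = 4, limma adjusted p = 0.496). Among the astrocyte markers, 4 positive and 2 negative, only Aldh1l1 did not overlap (1619 ± 86.3 and 2029 ± 406, limma adjusted p = 0.531). No marker of these lists was at 0 in all libraries, and the part of cell makeup in the members' values was not tested.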

How the data were processed

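RNA of hippocampal CA1 was made into stranded mRNA libraries, per the labels' protocols. STAR, StringTie and DESeq2 were used by the authors with build mm9, per the submitters' processing notes, which give no versions or roles, and the sources used here do not give the strand setting of the counting. The authors deposited 1 table with a log2 value per gene and library, which equals log2(reads / size factor + 1): 2 to the power of the value, minus 1, gave whole reads in 100% of values within 0.001 reads, once the size factor was found. Reads so recovered came to 42346644 to 49897832 per WT library and 40330226 to 46559795 per cKO library. That deposited table also holds a p-value, an FDR and a log2 fold change by the authors. Columns of group means were left out.

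The groups (4 cKO, 4 WT) were compared in limma 3.58.1 under R 4.3.3 (mean-variance trend, robust, pseudocount 1, no covariate) on 26135 genes, with Benjamini-Hochberg adjustment and a threshold of 0.05. Intervals are limma's. Raw counts would have been tested by a count model, but the table holds log2 values. The members and lists were chosen with earlier results of these data known. All members are named, values per library are given for the 10 of smallest unadjusted p, and up to 3 genes per partner list are named from those with no overlap. Smarcd1, Kdm1a, Tet1 and the library values of Setd5 and Kmt2b were added after their values were seen. The comparison with genes of like level was chosen after seeing the data. The scripts were tested on simulated data. Exon overlap with a gene on the opposite strand exists for 11 of the 33 members (GENCODE M21), among them Kmt2a, Kmt2c, Kmt2e and Dnmt3a, whose reads could be mixed with it if strand was ignored.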

Additional observations from a re-analysis of the deposited data

Results flagged for a closer look

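A library was singled out where its gap to the nearest of the other 3 as a share of the group's range exceeded Dixon's critical value (95% level). This was examined in 106 groups of 4 libraries (66 of members, 20 of pair ratios, 20 of other named genes), and 8 met it. Chance alone marks about 1 group in 20.

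Tcf4 had 8382 normalized reads in cKO replicate 4, while the other cKO libraries held 13525 to 14070. The log2 ratio of Kmt2a over Kmt2b was 1.29 in cKO replicate 2 and 2.13 to 2.17 in the other cKO libraries. Kdm6a over Kdm6b was 0.55 in WT replicate 1 and 0.059 to 0.13 in the other WT libraries. Fibcd1, a CA1 marker, had 6350 normalized reads in cKO replicate 1 against 5176 to 5251. Sst, an interneuron peptide gene, had 4909 in WT replicate 1 against 5373 to 5430. Aldh1l1, an astrocyte marker, had 2631 in cKO replicate 2 against 1769 to 1907. Kcnq1ot1, a nuclear noncoding RNA, had 2247 in cKO replicate 1 against 1450 to 1530. Xist had 71044 in WT replicate 4 against 61454 to 62706.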

How the results depend on the processing

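The count of members past the adjusted threshold was 0 in each of 16 alternative settings, as was the count of partner genes. The count of pair ratios was also 0 wherever run, but there a single pair could not have passed even at the smallest p possible. Members at an unadjusted p under 0.05 numbered 1 to 5 when single libraries were left out, where 6.33% to 11.3% of all genes did, and 2 or 3 under the other settings, where 7.11% to 11.5% did. Members with no overlap between groups numbered 1 under total-read scaling (4.75% of all genes), 1 under quantile normalization (4.45%) and 0 to 4 with a library left out (6.89% to 11.0%). Partner genes at an unadjusted p under 0.05 numbered 5 to 17 of 123 with a library left out, where 6.33% to 11.3% of all genes did. All genes past the adjusted threshold numbered 8 with array weights and 2 with the replicate block (7 at most and 4 at least with a library left out), against 5. The members' median log2 fold change ranged from −0.040 to 0.033. All 10 members described by library kept their direction in all 16 settings. With a library left out, 5 pair differences, all near 0, changed sign: Kmt2a/Kmt2b ranged from −0.0085 to 0.29, Kmt2e/Setd5 from −0.23 to 0.013, Kdm5b/Kdm5c from −0.066 to 0.016, Smarca2/Smarca4 from −0.11 to 0.14 and Chd3/Chd4 from −0.15 to 0.028. Kdm6a/Kdm6b ranged from −0.25 to −0.088, Setd1a/Setd1b from −0.23 to −0.029 and Chd7/Chd8 from −0.18 to −0.068, each nearest to 0 without WT replicate 1. The cause was not tested.

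No pairing of the samples by replicate number was seen over the genes tested as a whole. Deviations of same-numbered libraries correlated at −0.0037, 0.029, 0.021 and −0.040, and 1 of 4 WT libraries matched its own number best. That check asked only whether same-numbered libraries were alike. It does not cover a split such as that of Mpped1, which was high in replicates 1 and 2 of both genotypes. With the replicate block 2 members, Atrx and Kdm6a, had an unadjusted p under 0.05, and Kmt2d did not. For pair ratios, the smallest p of the paired sign-flip test is 0.125, so no pair could pass it.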
